A study of Rattus norvegicus with 30 samples.

Results

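Aminoacyl-tRNA synthetases join each amino acid to its own transfer RNA, the step that sets which amino acid a codon receives. The genes were set by a naming rule: a capital letter for the amino acid followed by ars, ars1 or ars2, plus Farsa, Farsb and Eprs1, measured by probesets (groups of short probes for 1 transcript) that the array annotation pairs with a single gene symbol. This rule gave 32 genes with 50 probesets, of 14217 genes and 31042 probesets in all. The members were chosen with earlier results of these data known. By compartment, 17 encode cytosolic enzymes, 13 encode mitochondrial enzymes, and Gars1 and Kars1 each encode both forms. Tars3, which the naming rule leaves out, is given with the partners of the synthetases.

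Cultures of primary hepatocytes from male Sprague Dawley rats, bought frozen and kept on collagen under Matrigel, received water or sodium valproate on day 3. Valproate, given as the sodium salt, is a branched short-chain fatty acid that is used against epilepsy and inhibits histone deacetylases. The 6 groups were water, 0.5 mM valproate and 10 mM valproate, each harvested after 24 h and 48 h, with 5 cultures and 5 arrays in each. All groups, controls included, shared the vehicle, the supplier and the culture conditions, and each culture was 1 well. The sources used here do not give the number or age of the donor animals, nor the plate of each well. P-values therefore measure the spread between wells, which may be technical. Values are signal intensities on a linear scale, and changes are differences of log2(signal + 16). Both concentrations were compared with the same water arrays of their time, so their changes are not independent of each other.

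In animals, the cytosolic and mitochondrial enzymes for an amino acid are mostly products of separate nuclear genes. Several cytosolic enzymes (Eprs1, Iars1, Lars1, Mars1, Qars1, Rars1 and Kars1 among those measured) bind each other in the multisynthetase complex, held together by the scaffolds Aimp1, Aimp2 and Eef1e1. Uncharged tRNA activates the kinase Gcn2, which phosphorylates the translation factor eIF2alpha and so raises translation of the transcription factor Atf4. Many cytosolic synthetase genes are known targets of Atf4, together with amino acid transporters and enzymes of amino acid synthesis. Hepatocytes, which export most plasma proteins, have a high demand for charged tRNA.

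The motif TGATGCAA, the composite site that C/EBP and ATF factors bind in amino acid response elements, lay in the promoters of 7 of 16 cytosolic synthetases (43.8%) and 0 of 13 mitochondrial ones. Promoters were taken from RefSeq (GRCr8), from 250 bases before to 50 bases after the start, and both strands were searched. They were listed for 30 of the 32 measured genes, with Gars1 and Rars1 not among them. Across all 33469 promoters of that table, 266 held the motif (0.795%). Of the promoters listed for other genes of the amino acid response, 4 of 30 held it (13.3%). The looser motif TGATGNAA, which includes TGATGCAA, was present in 3.98% of all promoters and in the same 7 synthetase promoters. The E-box CACGTG was found in 6.42% of all promoters and in 5 of 16 cytosolic ones. The genes with TGATGCAA were Aars1, Cars1, Iars1, Mars1, Nars1, Tars1 and Yars1. The sites of the 6 that fell with 0.5 mM at 24 h are shown with their flanks, 5′ to 3′ on the gene's strand, with the motif (TGATGCAA or its reverse complement TTGCATCA) in capitals. They lie at chr19:55908344-55908403 on the plus strand for Aars1, chr1:208225334-208225363 on the minus strand for Cars1, chr17:15193653-15193702 on the minus strand for Iars1, chr7:65023754-65023796 on the minus strand for Mars1, chr2:62114803-62114855 on the minus strand for Tars1 and chr5:146820190-146820212 on the plus strand for Yars1.
Aars1: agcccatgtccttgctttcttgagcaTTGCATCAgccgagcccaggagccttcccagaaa
Cars1: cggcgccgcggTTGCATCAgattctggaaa
Iars1: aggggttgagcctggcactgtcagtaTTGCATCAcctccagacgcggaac
Mars1: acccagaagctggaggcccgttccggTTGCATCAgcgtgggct
Tars1: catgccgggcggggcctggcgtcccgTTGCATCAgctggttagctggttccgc
Yars1: acgagctcagcTGATGCAAcctg
A match describes these letters only. No binding was measured.

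Of the 32 genes, 31 passed the filter on low signal and were tested. Nars2, the mitochondrial asparaginyl enzyme, did not pass. Hepatocyte markers were measured for 9 of 10 genes, all above the filter, and their summed signal was 442200 to 551200 in water at 24 h. As a sign of RNA quality, actin's 3′ probeset was set against its 5′ probeset on each array (log2), since broken RNA gives a high value. It exceeded 2 on 3 arrays, namely the third replicate of water at 24 h (2.76) and, among the 0.5 mM arrays at 48 h, replicate 3 (2.76) and replicate 4 (2.22). Counts of genes called for 0.5 mM against water, and for its difference between times, are given with and without these arrays.

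With 0.5 mM for 24 h, cytosolic synthetase mRNAs fell together on the brightest probeset of each gene. The tyrosyl, seryl, glutamyl-prolyl and isoleucyl enzymes led these falls. Of the 31 tested genes, 18 were called lower and 0 higher (limma, Benjamini-Hochberg adjusted p under 0.05 over all probesets), against 16.1% lower and 12.7% higher of all 11604 genes. Among the 19 cytosolic or dual genes, 16 were called lower, all 19 had a negative change, and the median log2 change was -0.74, against 0.02 over all genes. For 14 of these 19 the 5 treated and 5 water arrays did not overlap, as for 19.9% of all genes. Without the 3 arrays, 17 of the 19 were called lower, against 15.3% of all genes.

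Yars1, the tyrosyl enzyme, had the largest fall. Its signal was 11096, 13160, 14143, 12192 and 10318 in water at 24 h, and 4456, 5018, 5678, 4199 and 5160 with 0.5 mM. All treated arrays lay far below the lowest water array, and the log2 change was -1.31 ± 0.11 (SE, n = 5 and 5; limma, adjusted p = 2.71e-10). Sars1, which charges serine and also loads serine on selenocysteine tRNA, read 6906, 8076, 9138, 6117 and 6652 in water and 3729, 3730, 3795, 3662 and 3374 with 0.5 mM. The treated arrays spanned a narrow band below all water arrays, with a change of -0.99 ± 0.12 (limma, adjusted p = 1.64e-07).

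Further falls came from enzymes of the multisynthetase complex. Eprs1, the bifunctional glutamyl-prolyl enzyme, read 17321, 16603, 20800, 14785 and 16263 in water and 8401, 9865, 9727, 9909 and 8630 with 0.5 mM. Its groups were well apart, and the change was -0.88 ± 0.09 (limma, adjusted p = 2.63e-08). Iars1, the isoleucyl enzyme, read 10131, 9858, 11539, 8527 and 8808 in water and 5577, 5190, 4977, 5483 and 5431 with 0.5 mM, again without overlap, a change of -0.86 ± 0.09 (limma, adjusted p = 6.76e-09). Mars1, the methionyl enzyme that serves initiation and elongation, read 10882, 11990, 13421, 10849 and 11464 in water and 7233, 7554, 7184, 6911 and 6793 with 0.5 mM. The treated arrays were all lower, by -0.71 ± 0.07 on the log2 scale (limma, adjusted p = 2.9e-09). Lars1, the leucyl enzyme, which also takes part in sensing leucine for mTORC1, read 10592, 10566, 15252, 9054 and 9201 in water and 5871, 5758, 6085, 5973 and 6116 with 0.5 mM. The highest water array was replicate 3, the one with the high actin ratio, and the change was -0.85 ± 0.12. All 7 measured enzymes of the complex were called lower, each without overlap, with a median change of -0.71. The 12 cytosolic or dual genes outside the complex had a median of -0.74, with 9 called lower.

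Other called falls at 0.5 mM for 24 h were Tars1 (threonyl, -0.84 ± 0.10), Gars1 (glycyl, -0.80 ± 0.09), Vars1 (valyl, -0.75 ± 0.17), Aars1 (alanyl, -0.74 ± 0.08), Cars1 (cysteinyl, -0.74 ± 0.11), Wars1 (tryptophanyl, -0.42 ± 0.14), Qars1 (glutaminyl, -0.38 ± 0.11), Kars1 (lysyl, -0.33 ± 0.09), Farsb (the beta subunit of the phenylalanyl enzyme, -0.28 ± 0.08) and Rars1 (arginyl, -0.19 ± 0.06). The other 3 cytosolic genes were not called. Farsa, the alpha subunit of the phenylalanyl enzyme, had a change of -0.30 ± 0.12 (limma, adjusted p = 0.078), asparaginyl Nars1 of -0.20 ± 0.08 (0.0557) and histidyl Hars1 of -0.07 ± 0.06 (0.395). The 7 genes with TGATGCAA had a median change of -0.74 with 6 called lower, and the 10 listed without it had a median of -0.40 with 8 called lower. This difference was not tested. Without water replicate 3 the call of Qars1 was lost (-0.28), and the calls of Wars1 and Rars1 were each lost on leaving out any 1 of 3 arrays: for Wars1 water replicate 3 or treated replicates 1 or 2, for Rars1 water replicate 2 or treated replicates 3 or 5.

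**Figure D1:**
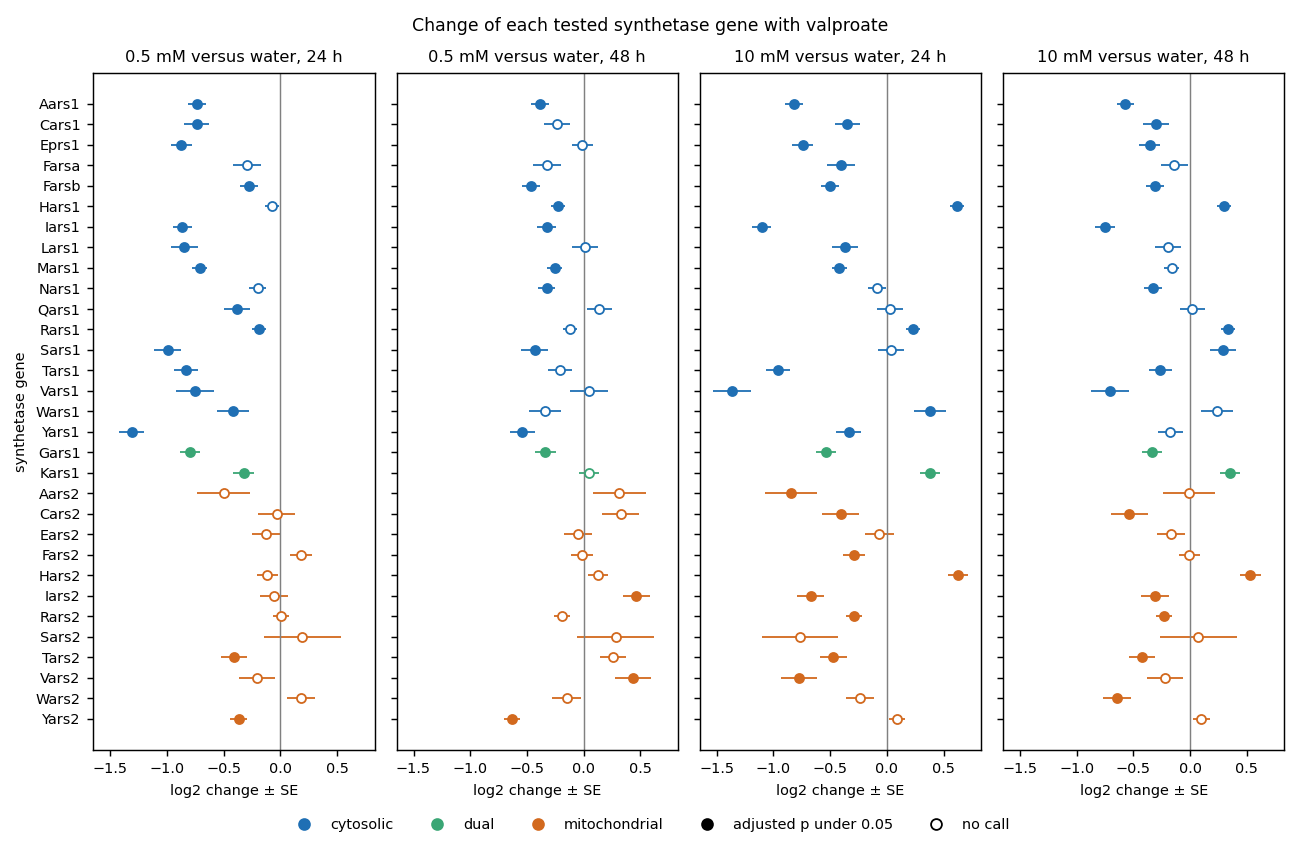
Log2 change ± SE (x axis) of each tested synthetase gene (y axis, 1 row a gene) against water in the 4 comparisons, n = 5 and 5 arrays. Blue is cytosolic, green dual and orange mitochondrial, and filled points have an adjusted p under 0.05; the blue points of the first panel all lie left of 0.

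These changes were read from the probeset with the highest mean signal of each gene. Of 18 further tested probesets of 14 members, 2 were called lower at 0.5 mM for 24 h (1 of Cars1, -0.58 ± 0.10, and 1 of Eprs1, -0.65 ± 0.13), 1 was called higher (Kars1, 0.62 ± 0.23), against 12.3% and 11.5% of all probesets, and 6 had the sign of the gene's main probeset. Among the 8 cytosolic genes with a single tested probeset, 6 were called lower. When the probesets of a gene were averaged, 13 of the 31 genes were called lower. The calls of Eprs1 (-0.24), Vars1 (-0.26), Wars1 (-0.16), Tars2 (-0.17), Farsb (0.05) and Kars1 (0.15) were lost, and Nars1 (-0.20) was called lower.

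Of the 12 tested mitochondrial enzymes, 2 were called lower at this dose and time, a share near the 16.1% of all genes, and 0 higher (limma; 12.7% of all genes). The median change was -0.09. The counts were the same without the 3 arrays with a high actin ratio. Tars2, the mitochondrial threonyl enzyme, had a change of -0.41 ± 0.12. Yars2, the mitochondrial tyrosyl enzyme, read 3666, 3734, 3636, 3823 and 3297 in water and 2658, 3074, 2844, 2840 and 2653 with 0.5 mM. No arrays overlapped, and the change was -0.37 ± 0.07 (limma, adjusted p = 0.000464). The other 10 ranged from -0.50 ± 0.23 for alanyl Aars2 to 0.19 ± 0.34 for seryl Sars2, the gene with the widest error. Mitochondrial genes mostly had lower signals than cytosolic ones and often wider errors, so the counts of the compartments differ in precision. Aars2 (mean log2 signal 8.31) was not called at -0.50, whereas cytosolic Farsb (12.61) was called at -0.28.

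**Figure D2:**
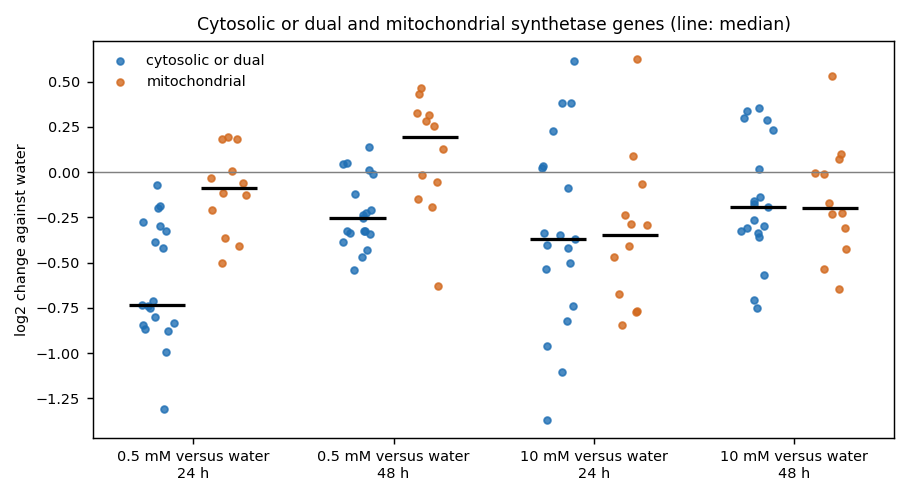
Log2 change (y axis) of each tested synthetase gene in each comparison with water (x axis), cytosolic or dual genes in blue and mitochondrial genes in orange, with black lines at the medians. At 0.5 mM for 24 h the medians were -0.74 and -0.09, and at 10 mM for 24 h they were -0.37 and -0.35.

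The difference between compartments was measured within each array, as the log2 ratio of the cytosolic to the mitochondrial enzyme for the same amino acid. There were 13 such pairs, with Farsa and Farsb both set against Fars2, and each was tested by an exact two-sided permutation test of 5 against 5 arrays. The smallest p this test can give is 0.00794, and these p-values are not adjusted. The tests at 0.5 mM were added after the members' changes had been seen. All pairs were read from the same arrays, so they are not independent of each other. Ratios of other genes were not computed as a background. At 0.5 mM for 24 h the ratio was lower in 11 of 13 pairs at p under 0.05, 12 of 13 differences were negative, and 7 pairs did not overlap. The number was 10 without the array with the high actin ratio and 6 when probesets were averaged. The seryl ratio had the largest difference, at -1.19 (exact permutation p = 0.0238). The tyrosyl ratio was 1.73 ± 0.15 (SD, n = 5) in water and 0.79 ± 0.18 with 0.5 mM, a difference of -0.94 (exact permutation p = 0.00794). The isoleucyl ratio differed by -0.81, that of Eprs1 to Ears2 by -0.75 and the cysteinyl ratio by -0.71, each at the smallest exact permutation p of 0.00794. The histidyl ratio (0.04, exact permutation p = 0.611) and the alanyl ratio (-0.23, exact permutation p = 0.413) did not pass.

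**Figure D3:**
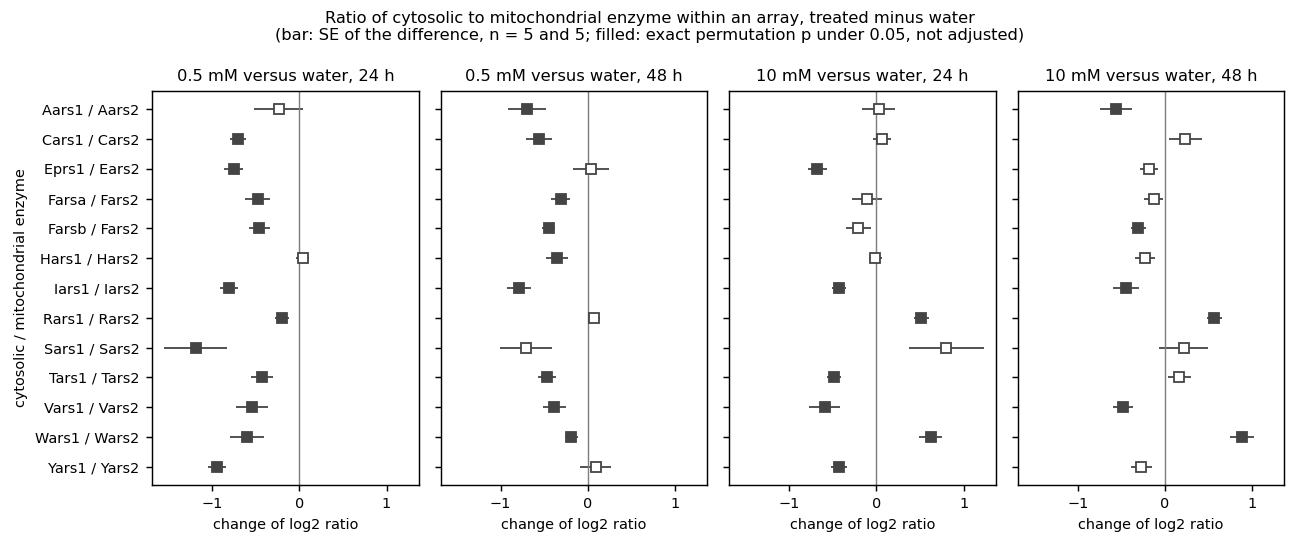
Change of the log2 ratio of the cytosolic to the mitochondrial enzyme (x axis, treated minus water, bars are SE) for 13 pairs (y axis) in the 4 comparisons; filled squares have an exact permutation p under 0.05, not adjusted. At 0.5 mM for 24 h, 12 of 13 squares lie left of 0, and at 10 mM the pairs lie on both sides.

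After 48 h of 0.5 mM, tyrosyl, phenylalanyl and alanyl enzymes were among the genes called lower. In all there were 10 of 31 genes, against 14.1% of all genes, and 2 called higher, against 11.9%. Among the cytosolic or dual genes 9 of 19 were called lower with a median of -0.26. Among the mitochondrial ones, isoleucyl Iars2 (0.47 ± 0.12) and valyl Vars2 (0.43 ± 0.16) were called higher, Yars2 lower, and the median was 0.19. Without the 3 arrays the cytosolic or dual count was 13 of 19 (12% of all genes), their median was -0.36, and neither Iars2 nor Vars2 was called. Vars2 also lost its call on leaving out any 1 of 8 of the 10 arrays. The values were also centred on ribosomal protein genes in place of the deposited scaling, which moved the median of all probesets from 0.00 to 0.18. With this centring 3 of the 31 genes were called lower and 5 higher. Of all 21729 probesets 880 were then lower and 4164 higher.

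Yars2 had the largest fall at 48 h of 0.5 mM. Its signal was 3030, 3415, 3967, 3376 and 4206 in water and 2271, 2388, 2321, 2318 and 2218 with 0.5 mM, without overlap, for a change of -0.63 ± 0.07 (limma, adjusted p = 1.59e-07). Farsb read 8378, 6830, 7155, 7581 and 8577 in water and 5749, 5366, 6241, 5216 and 5238 with 0.5 mM, also without overlap, for a change of -0.47 ± 0.08 (limma, adjusted p = 3.83e-05). Yars1 read 9159, 10603, 8728, 11288 and 10429 in water and 6031, 6458, 9796, 7148 and 5554 with 0.5 mM. Replicate 3, an array with a high actin ratio, lay within the range of water, and the change was -0.54 ± 0.11 (limma, adjusted p = 0.000445). Aars1 read 18009, 16893, 15053, 16386 and 14804 in water and 11056, 10739, 15090, 13047 and 12498 with 0.5 mM. Replicate 3 again overlapped water, and the change was -0.38 ± 0.08 (limma, adjusted p = 0.000451). The seryl gene Sars1 showed the same array apart: 6814, 7013, 6228, 6654 and 7516 in water and 4637, 4198, 7263, 5667 and 4129 with 0.5 mM (-0.43 ± 0.12). Nars1 (-0.33 ± 0.08), Gars1 (-0.34 ± 0.09), Iars1 (-0.33 ± 0.09), Mars1 (-0.26 ± 0.07) and Hars1 (-0.23 ± 0.06) made up the rest of the called falls.

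The within-array ratio at 48 h of 0.5 mM was lower in 9 of 13 pairs at an exact permutation p under 0.05, and in 6 without the arrays with a high actin ratio. The isoleucyl ratio (-0.79) and the cysteinyl ratio (-0.56) were again at the smallest exact permutation p of 0.00794. The tyrosyl ratio was not (0.09, exact permutation p = 0.659): Yars2 had fallen as well as Yars1.

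The change at 48 h was higher (less negative, or positive) than at 24 h for 16 genes by the test of the difference itself, against 12% of all genes. It was lower for 0, against 9.69%. The called genes were 13 of the 19 cytosolic or dual ones and 3 mitochondrial ones. For these 3 the change at 48 h was positive (Iars2 0.47, Tars2 0.26 and Vars2 0.43). Eprs1 and Lars1 had the largest differences (both 0.86), with little left of their fall at 48 h on the main probeset (Eprs1 -0.01 ± 0.09, Lars1 0.01 ± 0.12). With probesets averaged, Eprs1 (-0.42) and Lars1 (-0.42) were called lower at 48 h. Lars1 read 8667, 9684, 9333, 9076 and 9720 in water at 48 h and 7697, 7375, 13643, 10331 and 8983 with 0.5 mM, and its highest arrays were replicates 3 and 4. Those are the arrays with the high actin ratios, and the opposite array of the contrast, water replicate 3 at 24 h, was also the highest for Lars1. Without the 3 arrays the differences called fell to 5, against 4.51% of all genes: Eprs1 (0.69), Yars1 (0.52), Lars1 (0.50), Iars1 (0.35) and Mars1 (0.30). With the actin ratio as a covariate 2 were called, Eprs1 (0.56) and Lars1 (0.33), against 2.09% of all genes. Of the other probesets of the members, 0 were called higher in this difference and 5 lower (limma; 9.83% and 9.66% of all probesets), among them 1 each of Eprs1, Gars1, Lars1 and Mars1, whose main probesets were called higher.

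**Figure D4:**
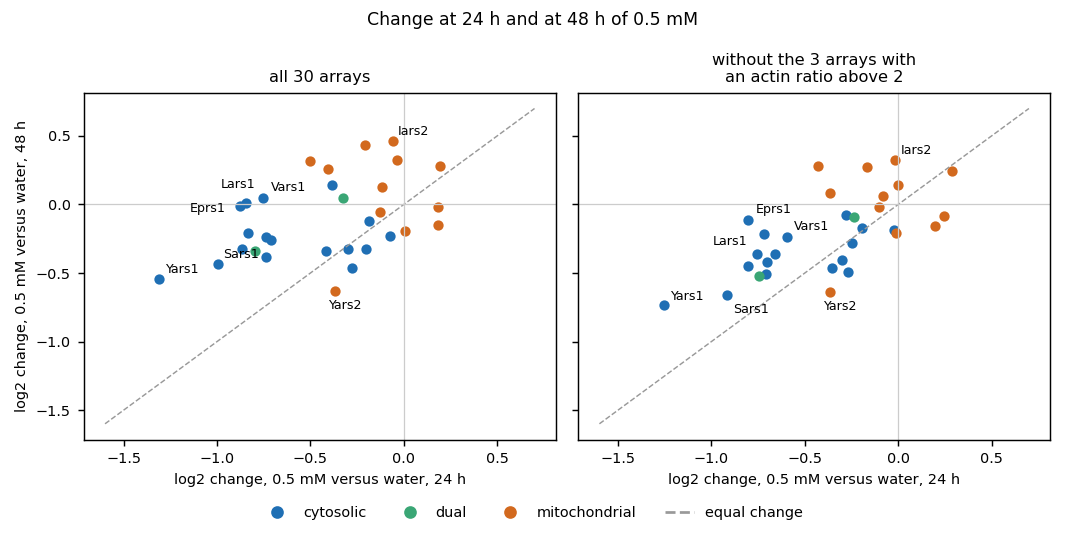
Log2 change at 48 h (y axis) against that at 24 h (x axis) of 0.5 mM for the 31 tested synthetase genes, with all 30 arrays on the left and without the 3 arrays with an actin ratio above 2 on the right. Points above the dashed line fell less, or rose more, at 48 h; on the right the cytosolic points lie lower, and Lars1 moves from 0.01 to -0.22 at 48 h.

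At 10 mM for 24 h the family split: valyl, isoleucyl, threonyl and alanyl enzymes fell, and both histidyl enzymes rose. Of 31 genes, 19 were called lower, against 25% of all genes, and 5 higher, against 31.1%. The median change was -0.37 for the 19 cytosolic or dual genes (12 lower, 4 higher) and -0.35 for the 12 mitochondrial ones (7 lower, 1 higher), against 0.07 over all genes. Arrays did not overlap for 18 of the 31, as for 45.6% of all genes. Centred on ribosomal protein genes, which moved the median of all probesets from 0.10 to 0.20, 12 were called lower. Of all 21729 probesets 3370 were then lower and 6836 higher.

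Vars1, the valyl enzyme, had the largest fall. It read 1576, 1453, 2417, 1343 and 1277 in water and 620, 525, 618, 560 and 678 with 10 mM, without overlap, for a change of -1.37 ± 0.17 (limma, adjusted p = 3.48e-08). Iars1 read 4561, 4672, 4213, 4264 and 4868 with 10 mM, below every water array, for a change of -1.10 ± 0.09 (limma, adjusted p = 1.54e-12). Tars1 read 9487, 8965, 11202, 7111 and 8636 in water and 4475, 4731, 5034, 4834 and 4045 with 10 mM. Its groups were apart, with a change of -0.96 ± 0.10 (limma, adjusted p = 3.03e-09). For the alanyl enzymes, Aars1 read 15487, 15410, 17032, 14887 and 16443 in water and 9132, 8742, 8837, 9654 and 8433 with 10 mM, a change of -0.82 ± 0.08 (limma, adjusted p = 1.74e-10). Aars2 read 476, 313, 494, 436 and 316 in water and 181, 253, 241, 181 and 229 with 10 mM, a change of -0.85 ± 0.23 (limma, adjusted p = 0.00267). Neither alanyl gene overlapped water. Vars2 (-0.78 ± 0.16), Eprs1 (-0.74 ± 0.09) and Iars2 (-0.67 ± 0.12) followed among called genes. Sars2 had a change of -0.77 ± 0.34 and was not called (limma, adjusted p = 0.0616), though it was with quantile normalization (-0.97), with the replicate block, and on leaving out any 1 of 3 arrays. With probesets averaged, the calls of Eprs1 (-0.099), Gars1 (-0.13), Cars1 (-0.067) and Mars1 (0.060) were lost. Lars1 (0.27) was then called higher and Wars2 lower. Vars1 kept its call in 13 alternative settings, with changes of -1.46 to -0.57. Of 18 other probesets of the members, 4 were called higher and 2 lower (28% and 20.2% of all probesets), and 11 had the sign of the main probeset.

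The rises at 10 mM for 24 h were Hars1, Hars2, Wars1, Kars1 and Rars1. Hars1 read 3918, 3444, 4374, 3760 and 3661 in water and 5681, 5883, 5826, 6520 and 5434 with 10 mM. Hars2 read 1671, 1656, 1908, 1548 and 1934 in water and 2561, 2576, 2906, 2806 and 2619 with 10 mM. Neither overlapped, and the changes were 0.62 ± 0.06 (limma, adjusted p = 4.12e-10) and 0.63 ± 0.09 (limma, adjusted p = 7.84e-07). A second probeset of each gene was called higher too (Hars1 1.39 ± 0.25, Hars2 0.41 ± 0.12). In RefSeq (GRCr8) the starts of these genes lie 144 bases apart on chromosome 18, on opposite strands.

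Wars1, the tryptophanyl enzyme, which interferon induces, read 1882, 1764, 2793, 1911 and 1824 in water and 2745, 2244, 2787, 2563 and 2803 with 10 mM. Water replicate 3, with the high actin ratio, overlapped the treated arrays, and the change was 0.38 ± 0.14 (limma, adjusted p = 0.0238). The call of Wars1 was lost without any 1 of 5 of the 10 arrays (water replicates 1, 2 and 5, treated replicates 3 and 5), which gave changes of 0.34 to 0.36. Kars1 read 7448, 7584, 10099, 7338 and 7245 in water and 9412, 10580, 9821, 11508 and 10113 with 10 mM. The same water array overlapped, and the change was 0.38 ± 0.09 (limma, adjusted p = 0.000626). Rars1 read 7774, 8872, 8139, 8273 and 8337 in water and 10060, 10235, 9514, 10045 and 8648 with 10 mM, with 1 treated array inside the water range and a change of 0.23 ± 0.06 (limma, adjusted p = 0.00287). Sars1 and Qars1, called lower at 0.5 mM, had changes of 0.04 ± 0.12 and 0.02 ± 0.11 at 10 mM. Lars1 showed opposite calls between its probesets, -0.37 ± 0.12 for the main one and 0.91 ± 0.17 for the other, and without water replicate 3 the main one was not called (-0.24). The call of mitochondrial Cars2 (-0.41 ± 0.16) was lost on leaving out any 1 of 7 arrays and that of Fars2 (-0.29 ± 0.10) without treated replicate 4.

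**Figure D5:**
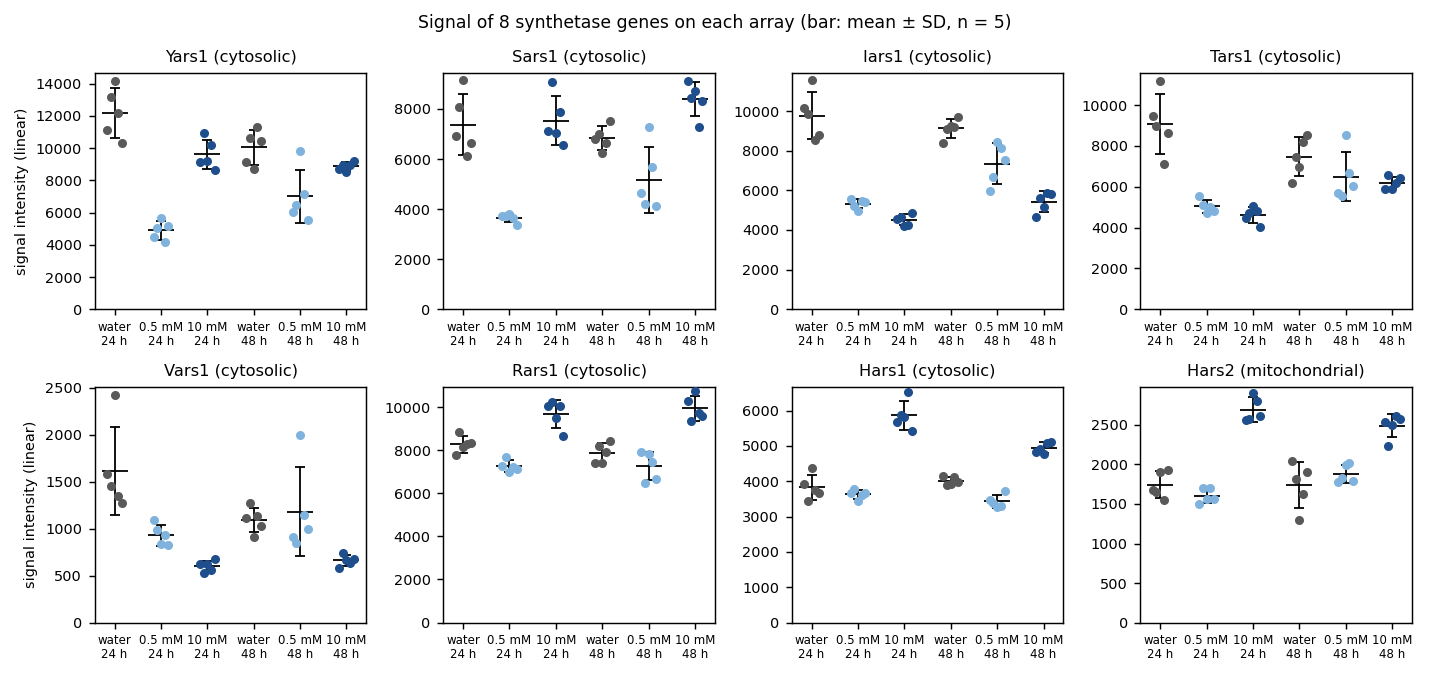
Signal intensity (y axis, linear, from 0) of 8 synthetase genes on each array by group (x axis); points are arrays and bars are mean ± SD, n = 5. Yars1 and Sars1 are lowest at 0.5 mM for 24 h, Vars1 is lowest at 10 mM, and Hars1 and Hars2 are highest at 10 mM at both times.

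After 48 h of 10 mM, Iars1, Vars1 and Aars1, the cytosolic isoleucyl, valyl and alanyl enzymes, were again lower and both histidyl enzymes higher. The mitochondrial Aars2 (-0.01 ± 0.23) and Vars2 (-0.22 ± 0.16), lower at 24 h, were not called at 48 h. Of 31 genes, 14 were called lower, against 22.3% of all genes, and 5 higher, against 27.6%. The medians were -0.20 for the cytosolic or dual genes (9 lower, 4 higher) and -0.20 for the mitochondrial ones (5 lower, 1 higher). Centred on ribosomal protein genes, which moved the median of all probesets from 0.04 to 0.22, 4 were called lower. Of all 21729 probesets 2228 were then lower and 7123 higher. With probesets averaged, the calls of Vars1 (-0.23), Eprs1 (-0.20) and Farsb (-0.17) were lost. Lars1 (-0.53) and Mars1 (-0.27) were then called lower and Wars1 (0.38) higher.

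Iars1 read 8381, 9111, 9260, 9218 and 9719 in water at 48 h and 4675, 5626, 5159, 5877 and 5831 with 10 mM, a change of -0.75 ± 0.09 (limma, adjusted p = 9.74e-09). Vars1 read 1111, 1272, 914, 1132 and 1032 in water and 584, 739, 668, 635 and 677 with 10 mM, a change of -0.71 ± 0.17 (limma, adjusted p = 0.000886). Wars2, the mitochondrial tryptophanyl enzyme, read 858, 721, 905, 775 and 1042 in water and 397, 673, 586, 581 and 496 with 10 mM. None of these 3 genes overlapped water, and the change of Wars2 was -0.65 ± 0.12 (limma, adjusted p = 6.32e-05). Aars1 read 11121, 12537, 10572, 10201 and 10192 with 10 mM, below all water arrays, a change of -0.57 ± 0.08 (limma, adjusted p = 3.52e-07). Cars2, the mitochondrial cysteinyl enzyme, read 916, 600, 818, 1040 and 972 in water and 734, 674, 625, 453 and 485 with 10 mM. Of the water arrays 1 lay among the treated ones, and the change was -0.54 ± 0.16 (limma, adjusted p = 0.00686).

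Hars2 read 2040, 1815, 1302, 1624 and 1910 in water at 48 h and 2537, 2237, 2502, 2614 and 2573 with 10 mM, a change of 0.53 ± 0.09 (limma, adjusted p = 1.51e-05). Hars1 read 4143, 3900, 3930, 4108 and 3993 in water and 4826, 4924, 4785, 5089 and 5122 with 10 mM, a change of 0.30 ± 0.06 (limma, adjusted p = 0.000136). Both histidyl genes stood above every water array. Kars1 read 6965, 7985, 7065, 7844 and 8258 in water and 9806, 8971, 9574, 10066 and 10186 with 10 mM, a change of 0.35 ± 0.09 (limma, adjusted p = 0.00176). Rars1 read 7400, 8179, 7427, 7930 and 8423 in water and 10310, 9348, 10747, 9726 and 9577 with 10 mM, a change of 0.34 ± 0.06 (limma, adjusted p = 4.11e-05). Lysyl and arginyl arrays did not overlap water either. Sars1 read 9116, 8450, 8718, 7292 and 8335 with 10 mM, of which 1 array lay within the water range, a change of 0.29 ± 0.12 (limma, adjusted p = 0.0449). Its call was lost on leaving out any 1 of 8 of the 10 arrays, all but water replicate 5 and treated replicate 4, and those of Tars1, Iars2 and Cars1 on leaving out any 1 of 7, 6 and 5 arrays.

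The change at 10 mM differed between 48 h and 24 h for 2 of 31 genes: Tars1, whose fall was smaller at 48 h (difference 0.70 ± 0.15; limma, adjusted p = 0.00169), and Hars1, whose rise was smaller (-0.31 ± 0.09; limma, adjusted p = 0.0149). The background was 6.63% higher and 6.2% lower. In water alone, 48 h against 24 h, 1 gene was called higher (Wars2, 0.43), against 5.11% of all genes, and 0 lower, against 4.96%.

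Cytosolic to mitochondrial ratios at 10 mM moved both ways. At 24 h, 7 of 13 pairs had an exact permutation p under 0.05, 5 with the cytosolic enzyme relatively lower and 2 with it higher (Rars1 to Rars2 by 0.52, Wars1 to Wars2 by 0.62). At 48 h there were 6, again with arginyl (0.57) and tryptophanyl (0.88) ratios higher and 4 lower. The histidyl ratio had differences of -0.01 at 24 h (exact permutation p = 0.865) and -0.23 at 48 h (exact permutation p = 0.0556). With probesets averaged, only 5 pairs passed at 24 h, 2 of them lower.

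Synthetase genes differed between the concentrations in both directions, as genes did in general. At 24 h, 10 mM was above 0.5 mM for 13 of the 31 genes, against 32.9% of all genes. It was below 0.5 mM for 9, a share near the 26.4% of all genes. The 11 cytosolic or dual genes that were higher at 10 mM included Sars1 (1.03 ± 0.12), Yars1 (0.97 ± 0.11), Wars1 (0.80 ± 0.14), Kars1 (0.71 ± 0.09) and Hars1 (0.69 ± 0.06). The 3 that were lower were Vars1 (-0.62 ± 0.17), Iars1 (-0.24 ± 0.09) and Farsb (-0.22 ± 0.08). Of the 12 mitochondrial genes, 6 were lower at 10 mM, among them Sars2 (-0.96 ± 0.34) and Iars2 (-0.61 ± 0.12), and Hars2 (0.74 ± 0.09) and Yars2 (0.46 ± 0.07) higher. At 48 h, 8 genes were higher at 10 mM and 8 lower, both near the shares of all genes (30% and 23.8%). Yars2 (0.73 ± 0.07) and Sars1 (0.72 ± 0.12) led the higher ones, and Cars2 (-0.86 ± 0.16) and Iars2 (-0.78 ± 0.12) the lower ones.

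At 24 h, summed signals of markers of hepatocytes and of other liver cells stood apart from water at 10 mM, and for some lists at 0.5 mM. The summed signal of 8 of 10 macrophage markers measured, 5 of them above the filter, was 19540 to 23580 in water at 24 h, 23490 to 26240 with 0.5 mM and 6098 to 7159 with 10 mM. Endothelial markers summed to 3114 to 4385 in water and 1877 to 2413 with 10 mM, stellate markers to 4244 to 4873 and 3396 to 3937, and bile duct markers to 17580 to 18200 and 10650 to 12440. With 0.5 mM for 24 h bile duct markers summed to 19740 to 21190 and stellate markers to 4950 to 5703, both above all water arrays, and endothelial markers to 4170 to 4833, overlapping water. Hepatocyte markers summed to 491500 to 592400 with 0.5 mM and 364500 to 441700 with 10 mM. At 48 h endothelial sums overlapped (2326 to 2741 in water and 1835 to 2515 with 10 mM). So did hepatocyte sums (419600 to 475200 and 414400 to 451100), and the other lists stayed below water. Taken singly at 10 mM for 24 h, 3 of 5 tested macrophage, 2 of 6 endothelial and 2 of 7 stellate markers were called lower. So were 3 of 5 bile duct and 7 of 9 hepatocyte markers, against 25% of all genes. At 0.5 mM for 24 h 0 macrophage, endothelial or stellate markers were called. There 1 bile duct marker was higher, and 1 hepatocyte marker was higher and 2 lower (12.7% and 16.1% of all genes). In these bulk cultures fewer cells of a type and less RNA per cell cannot be told apart, and the part of these differences in the synthetase changes was not tested.

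Genes of the amino acid response that are known to be driven by Atf4 were low at 0.5 mM as well. Of 33 tested (synthetases not included), 24 were called lower and 2 higher at 24 h (16.1% and 12.7% of all genes), with a median change of -0.52 against 0.02 over all genes. At 48 h 16 were lower and 4 higher (14.1% and 11.9% of all genes). Without the 3 arrays with a high actin ratio 25 were lower and 2 higher at 24 h, and 17 and 4 at 48 h. Asns, which makes asparagine, had changes of -1.24 ± 0.06 (limma, adjusted p = 1.73e-15) at 24 h and -0.75 ± 0.06 at 48 h. Trib3, a pseudokinase, changed by -1.31 ± 0.13 and -0.58 ± 0.13, and Atf4 itself by -0.35 ± 0.07 and -0.40 ± 0.07. Ddit3, which encodes the stress factor CHOP, had changes of -0.00 ± 0.09 and -0.18 ± 0.09, neither called. Slc7a1, a transporter of cationic amino acids, had the largest fall of this list at 24 h (-1.71 ± 0.09).

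At 10 mM, 16 genes of this list were lower and 8 higher at 24 h, against 25% and 31.1% of all genes. At 48 h 15 were lower and 8 higher, against 22.3% and 27.6%. At 24 h Atf5 (-2.28 ± 0.12), alanine aminotransferase Gpt2 (-1.52 ± 0.12), the glycine transporter Slc6a9 (-1.31 ± 0.09) and the lipoprotein receptor Vldlr (-1.21 ± 0.12) fell most. Atf3 (2.35 ± 0.09), Ddit3 (1.98 ± 0.09), the hormone Fgf21 (0.84 ± 0.12) and the serine-synthesis enzyme Psph (0.53 ± 0.09) rose most. Asns (0.05 ± 0.06) and Atf4 (-0.12 ± 0.07) were not called at 24 h, and Trib3 was lower (-0.32 ± 0.13). At 48 h Ddit3 was at 1.51 ± 0.09, Asns at -0.18 ± 0.06, Atf4 at -0.05 ± 0.07 and Trib3 at 0.02 ± 0.13, with the last pair not called. Of the 6 kinases of eIF2alpha and their phosphatase subunits, 1 rose at 24 h of 10 mM, the phosphatase subunit Ppp1r15a (0.64 ± 0.10; 31.1% of all genes). The 2 that fell were Ppp1r15b (-0.32 ± 0.08) and the kinase Eif2ak1 (-0.24 ± 0.08; 25% of all genes). At 48 h of 10 mM 2 rose and 1 fell (27.6% and 22.3% of all genes). At 0.5 mM for 24 h 0 of the 6 rose and Ppp1r15a fell (-0.28 ± 0.10; 12.7% and 16.1% of all genes). That call was lost without the 3 arrays. At 48 h of 0.5 mM 3 rose and 0 fell (11.9% and 14.1% of all genes), and 2 rose without the 3 arrays. The change at 0.5 mM was higher at 48 h than at 24 h for 4 of the 6, against 12% of all genes.

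Of 14 tested partners of the synthetases (scaffolds and charging factors), 4 were higher and 8 lower at 10 mM for 24 h, with 31.1% and 25% of all genes so called. At 0.5 mM for 24 h 2 were higher and 4 lower, with 12.7% and 16.1% of all genes so called. The shares of higher genes were near those of all genes. The scaffolds of the complex diverged at 10 mM: Aimp1 rose (0.68 ± 0.10) and Aimp2 fell (-0.78 ± 0.07). The editing factor Aarsd1 rose (0.71 ± 0.10), as did Dtd2 (0.40 ± 0.10) and the mitochondrial formyltransferase Mtfmt (0.14 ± 0.06). Tars3, a further threonyl enzyme of the cytosol outside the naming rule, fell (-0.997 ± 0.11), as did Sepsecs (-0.76 ± 0.15), which completes selenocysteine on its tRNA, and Qrsl1 (-0.68 ± 0.12), a subunit of the mitochondrial glutaminyl-tRNA amidotransferase. At 48 h of 0.5 mM, 7 were lower and 0 higher (limma; 14.1% and 11.9% of all genes), led by the scaffold Eef1e1 (-0.87 ± 0.11). Without the 3 arrays the counts at 0.5 mM were 3 lower and 2 higher at 24 h and 7 and 0 at 48 h.

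Genes of cytosolic tRNA modification and RNA polymerase III, which transcribes tRNA genes, were lower for 14 of 28 and higher for 0 at 0.5 mM for 24 h (limma; 16.1% and 12.7% of all genes), with a median of -0.34. At 48 h 8 were lower and 1 higher (14.1% and 11.9% of all genes). Without the 3 arrays 12 were lower and 0 higher at 24 h (limma), and 7 and 1 at 48 h. At 10 mM for 24 h the shares were near those of all genes (31.1% higher and 25% lower): 8 were higher, led by Polr3g (0.71 ± 0.07), Brf2 (0.54 ± 0.16), Tyw1 (0.52 ± 0.09) and Polr3k (0.50 ± 0.15), and 7 lower, led by Polr3b (-2.43 ± 0.24), Trmt6 (-0.87 ± 0.09), Wdr4 (-0.78 ± 0.28) and Polr3d (-0.70 ± 0.11). Genes of mitochondrial translation at 0.5 mM for 24 h were higher for 2 and lower for 5 of 28 (12.7% and 16.1% of all genes), and for 2 and 6 without the 3 arrays. At 10 mM for 24 h, where 31.1% of all genes were higher and 25% lower, 12 were higher, led by the release factor Mtrfr (1.07 ± 0.26), Mterf3 (0.88 ± 0.10), Gtpbp3 (0.81 ± 0.15) and Tfb2m (0.79 ± 0.07), and 6 were lower, led by the initiation factor Mtif2 (-0.995 ± 0.17), Mto1 (-0.79 ± 0.17), Elac2 (-0.63 ± 0.15) and Mrrf (-0.38 ± 0.08).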

How the data were processed

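Each deposited value is a linear MAS5 signal intensity for 1 probeset on 1 array, per the file headers and the submitters' processing notes, which state no settings. The mean after trimming 2% lay between 1500.53 and 1500.68 on each of the 30 arrays, so arrays had been scaled to a common mean and were not normalized again. Precision is limited by the number of arrays. Of 31099 probesets 57 controls were left out. The platform annotation gave 1 symbol for 20826 of the rest, several for 436 and none for 9780. RefSeq held 20758 of the single symbols. A further 2 member probesets paired with several gene records were left out.

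Signals became log2(signal + 16), and probesets with a mean below the 30th percentile (7.39) were removed, leaving 21729. A linear model over the 6 groups was fitted with limma 3.58.1 (R 4.3.3, lmFit and eBayes with trend, 24 residual degrees of freedom), with Benjamini-Hochberg adjustment over all probesets and calls at 0.05. The script was tested on simulated data. A gene is the probeset with its highest mean. All members are named. Arrays are given singly for the 5 largest called rises and falls at 10 mM and the 4 lowest adjusted p at 0.5 mM, and up to 4 genes per list and direction are named by size, with Asns, Atf4, Ddit3 and Trib3 always named. Lars1 at 0.5 mM, Sars1 at 48 h of 0.5 mM and other genes beyond this were chosen after their values were seen. Members and lists were chosen with earlier results of these data known. Alternatives were other pseudocounts (1 and 64), centring on ribosomal protein genes, quantile normalization, other filters, no trend, array weights, only the groups compared, the mean of a gene's probesets, a block of runs of 6 arrays, the actin ratio as a covariate, and leaving out each array or the 3 with an actin ratio above 2. The leave-out of those 3 for the ratios, and all alternatives of the ratios at 0.5 mM, were chosen after seeing the data. For runs of 6 in the labels' running number, the median residual correlation between arrays was 0.003 within and -0.0019 between runs. This median does not test a shared plate or donor, which the sources do not give. Both arrays with an actin ratio of 2.76 were in run 3.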

Additional observations from a re-analysis of the deposited data

Results flagged for a closer look

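In 14 of 192 combinations of a gene and a group of 5 arrays, 1 array stood apart from the other 4 by a gap that was large for the range of its group (Dixon's test). Chance alone flags about 1 in 20 groups, or 9.6 of the 192. The gap as a share of the range was 0.862 for Kars1 and 0.826 for Wars1, both in water at 24 h, where replicate 3, the array with an actin ratio of 2.76, was highest. It was 0.842 for Farsa (10 mM, 24 h, replicate 1 lowest), 0.74 for Mars1 (10 mM, 24 h, replicate 2 highest) and 0.762 for Qars1 (10 mM, 48 h, replicate 3 highest). Among mitochondrial genes it was 0.726 for Aars2 (0.5 mM, 48 h, replicate 1 lowest), 0.748 and 0.754 for Cars2 (water at 24 h, replicate 4 lowest, and 0.5 mM at 24 h, replicate 1 lowest), 0.773 for Ears2 (water, 48 h, replicate 3 highest), 0.72 for Hars2 (10 mM, 48 h, replicate 2 lowest) and 0.712 for Rars2 (0.5 mM, 24 h, replicate 3 highest). Nars2, below the filter, gave 0.818 (water, 24 h, replicate 1 lowest), 0.737 (10 mM, 24 h, replicate 5 highest) and 0.794 (10 mM, 48 h, replicate 1 lowest).

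For 18 results the change against water differed between 48 h and 24 h by limma's test of the difference. At 10 mM these were Hars1 (-0.31) and Tars1 (0.70). At 0.5 mM the differences were 0.35 for Aars1, 0.50 for Cars1, 0.86 for Eprs1, 0.46 for Gars1, 0.54 for Iars1, 0.37 for Kars1, 0.86 for Lars1, 0.46 for Mars1, 0.52 for Qars1, 0.56 for Sars1, 0.63 for Tars1, 0.80 for Vars1 and 0.77 for Yars1, and 0.53 for Iars2, 0.66 for Tars2 and 0.64 for Vars2. With the 3 arrays of high actin ratio left out, 5 of the differences at 0.5 mM were called.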

How the results depend on the processing

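The count of 18 lower at 0.5 mM for 24 h ranged from 17 to 19 when single arrays were left out. Mitochondrial genes lower there went from 2 to 1 with averaged probesets and with the actin covariate, which also called 1 synthetase gene higher. Centring on ribosomal protein genes gave 12 lower at 10 mM for 24 h and 4 lower at 10 mM for 48 h. At 0.5 mM for 48 h it gave 5 higher and 3 lower. It gave 0 lower in the difference between times at 10 mM and 3 lower for 10 mM against 0.5 mM at 24 h. In water between times it gave 0 higher and 2 lower. Over all probesets that centring turned 2216 higher and 2581 lower at 0.5 mM for 48 h into 4164 and 880, 5185 and 3889 at 10 mM for 48 h into 7123 and 2228, and 2135 and 2098 in the difference between times at 0.5 mM into 3790 and 450. The cause was not tested.

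The count of 2 higher at 0.5 mM for 48 h was 1 with quantile normalization, no filter, array weights or the replicate block (runs of 6), and 0 with only the groups compared, the actin covariate or without the 3 arrays. The difference between times at 10 mM, 1 higher and 1 lower, had 3 higher with a filter at the 50th percentile, 4 with only the groups compared or array weights, 2 with the replicate block or without the 3 arrays, and 2 lower with averaged probesets. At 0.5 mM the 16 higher became 9 with only the groups compared, 7 with averaged probesets, 2 with the actin covariate and 5 without the 3 arrays, and the 0 lower became 2 with quantile normalization and 3 with averaged probesets. In water between times, higher calls were 0 with only the groups compared, 3 with averaged probesets, 2 with the actin covariate and 2 without the 3 arrays. Lower calls there were 1 with a pseudocount of 64, quantile normalization, array weights, the replicate block or without the 3 arrays, and 2 with the 50th percentile filter. The replicate block moved no other count by over 1.5 times.

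Averaging probesets reversed Lars1 (0.27) and Mars1 (0.060) at 10 mM for 24 h, Farsb (0.049) and Kars1 (0.15) at 0.5 mM for 24 h, Lars1 (-0.42) at 0.5 mM for 48 h, and between times Lars1 at 10 mM (-0.80) and Eprs1 (-0.18), Gars1 (-0.45), Lars1 (-0.053) and Mars1 (-0.45) at 0.5 mM. It also reversed the ratios of Eprs1 to Ears2 at 0.5 mM for 48 h (-0.37) and of Hars1 to Hars2 (0.49), Iars1 to Iars2 (0.065) and Vars1 to Vars2 (0.21) at 10 mM for 24 h. Lars1 at 0.5 mM for 48 h was also negative with the actin covariate (-0.28) and without the 3 arrays (-0.22). Leaving out single arrays gave 1 to 2 higher at 0.5 mM for 48 h, 1 to 3 higher between times at 10 mM, 0 to 1 lower between times at 0.5 mM, and 0 to 1 higher and 0 to 3 lower in water between times.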
